A study of Mus musculus with 41 samples.

Results

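The data concern 4 CpGs at the 5′ edge of CNS2, a conserved non-coding sequence downstream of the mouse *Il4* coding exons that is also known as DNase I hypersensitive site V. They were chosen by position as the CpGs of the first of 3 CNS2 amplicons, read on the minus strand of chromosome 11 in mouse genome build mm9, and they make up 4 of the 64 CpGs amplified across the *Il4* locus. Numbered in the direction of *Il4* transcription, they are CpG48 at position 53419636, CpG49 at 53419562, CpG50 at 53419508 and CpG51 at 53419486. A level is the percentage of reads with C among reads with C or T at a CpG after bisulfite treatment, which is the sum of 5-methylcytosine and 5-hydroxymethylcytosine (5mC + 5hmC), and a CpG needed at least 100 reads.

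Th2 cells are helper T cells that make IL-4, the cytokine encoded by *Il4*, and the transcription factor GATA3 directs their differentiation. CNS2 is an enhancer used for *Il4* transcription in T cells. TET enzymes oxidise 5mC to 5hmC and on to 5-formylcytosine (5fC) and 5-carboxylcytosine (5caC), and the glycosylase TDG excises 5fC and 5caC. Bisulfite sequencing (BS-seq) reads 5mC and 5hmC as C, and unmodified cytosine, 5fC and 5caC as T.

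The study asked how loss of the TET enzymes or of TDG alters cytosine modification while naïve CD4+ T cells become Th2 cells. Of its 41 samples, 27 were BS-seq samples of naïve or Th2 cells, and 23 of these had reads at the 4 CpGs. The 4 without reads were replicates 2 and 3 of the TDG line in the first cycle, in WT and TDG iKO cells alike. The labels number them as replicates, but those of 1 genotype shared a library name and were treated here as runs of 1 library, which the labels do not state. The macrophage, pyridine borane and TAPS samples listed 0 cytosines in this amplicon.

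All cells came from the spleen and lymph nodes of C57BL/6 mice, which were 8 to 16 weeks old by the study's methods. Naïve cells were sorted as CD4+CD25−CD62LhiCD44lo and were not stimulated (3 libraries, WT). For the first Th2 cycle, naïve cells received plate-bound anti-CD3 and anti-CD28 at 1 μg/ml with IL-4 at 1000 U/ml and anti-IFN-γ at 1 μg/ml for 2 days. They then expanded in IL-2 at 20 U/ml for 3 days by the labels, while the methods give 4 days. For the second cycle the cells rested without cytokine for 1 day, were stimulated again under the same conditions for 1 day and expanded in IL-2 for 4 days.

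TET iTKO cells carried floxed *Tet1*, *Tet2* and *Tet3* alleles with a tamoxifen-inducible ERT2-Cre expressed from the ubiquitin C promoter, which is not specific to T cells, and an EYFP reporter of Cre activity at *Rosa26*. TDG iKO cells carried floxed *Tdg* alleles, the same inducible Cre and an EGFP and mCherry reporter at *Rosa26*. Mice received tamoxifen at 2 mg per injection over 5 days, controls included, and reporter-positive naïve cells were sorted before culture. The labels give the controls of both lines as wild type, called TET WT and TDG WT here, and do not give the alleles they carried. Each genotype of the TET line had 2 libraries after the first and 2 after the second cycle, and so did each genotype of the TDG line after the second cycle. After the first cycle the 4 CpGs were covered in 1 library per TDG genotype. A further 3 libraries came from first-cycle WT Th2 cells outside these lines, called WT Th2 here. For the *Gata3* experiment, naïve cells that expressed Cas9 from *Rosa26* were transduced after 24 h with a control retrovirus (mock) or with one for sgGATA3-1 or sgGATA3-2, and transduced cells were sorted on day 6, with 1 library each. The libraries hold DNA of the *Il4* locus only, so deletion of the targeted genes and the identity of the cells were not checked here. The study's methods report high but incomplete deletion of the floxed exons by qRT-PCR after the first Th2 cycle, lowest for *Tet2*.

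Reads per CpG ranged from 299 to 39096 over the 23 samples, with a median of 4199.5. Naïve replicate 2 was the shallowest library, with 299 to 325 reads, and every other library had at least 2147. The widest 95% Wilson interval of a level was ± 5.08 points in naïve replicate 2 and ± 2.00 points elsewhere. These intervals cover counting error only, since PCR copies were counted without molecular identifiers and need not stem from different molecules. At the 25 cytosines outside CpGs in the same amplicon, the share of C was 0.161% to 0.278% with a median of 0.200%, which is the level that an unmodified cytosine gave. The lowest level at any of the 4 CpGs was 0.988%, above these shares but close to the 1.00% of the highest single cytosine outside CpGs in any library. Levels of CpG51 near 1% are thus near the background. In the library with 0.988%, second-cycle TDG iKO replicate 1, the highest single cytosine outside CpGs read 0.494%. The study describes independent experiments, but the labels do not say that replicates came from separate animals, so the p-values measure the spread between these libraries. A level is an average over strands from many cells, so a site demethylated in some cells and a change in the mixture of cells cannot be told apart.

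The amplicon was 202 bp long with a GC content of 46.0%, 38 cytosines and an observed over expected CpG ratio of 0.387. The stretch that holds the 4 CpGs, with 10 bases on either side, is shown in the direction of *Il4* transcription because it gives their context and spacing, and the CpGs are in capitals.
CNS2 5′ edge, mm9 chr11:53419475-53419646, minus strand: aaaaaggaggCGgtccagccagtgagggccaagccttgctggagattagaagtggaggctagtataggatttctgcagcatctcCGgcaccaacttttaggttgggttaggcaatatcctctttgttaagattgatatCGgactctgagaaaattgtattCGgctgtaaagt
The CpGs were 74, 54 and 22 bp apart, from CpG48 to CpG51, and CpG48 lay 7764 bp from CpG47 of the exon 3 amplicon. All 4 are followed by a G. In the gene annotation of the same build, the amplicon lay 6300 bp downstream of the last exon of the transcripts Il4-001, Il4-002 and Il4-003 and inside an intron of Il4-004, between exons at 53423082 to 53423146 and 53416484 to 53416662. The gene *Kif3a*, on the plus strand, ended 1715 bp from the amplicon. The C of CpG48 was next to the 26-base forward primer and the G of CpG51 was the first base of the 25-base reverse primer site, and the part of this position in their levels was not tested.

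The letters GATA, a core of GATA factor motifs, matched 3 times over both strands, and all 3 matches had CpG50 as the nearest CpG. They lay at 53419510 to 53419513 on the minus strand and at 53419508 to 53419511 and 53419529 to 53419532 on the plus strand, and the first of these plus-strand matches held the C of CpG50. GATA was present in 64.4% of 587834 windows of the same length on chromosome 11. No match was found for TTCNNNGAA, TGTGGT or TGANTCA, which 6.73%, 15.0% and 5.90% of these windows held.

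In naïve cells the 4 CpGs spanned nearly the whole range of modification. CpG48 was almost fully modified, CpG49 and CpG50 were modified on a minority of strands and CpG51 on few. CpG48 read 89.4%, 92.4% and 92.3% in the 3 naïve libraries, a mean of 91.4% ± 1.69 (SD, n = 3). CpG49 read 31.5%, 31.7% and 39.2%, a mean of 34.1% ± 4.39. CpG50 read 35.8%, 32.5% and 38.7%, a mean of 35.7% ± 3.09. The ranges of CpG49 and CpG50 overlapped, so their order in naïve cells was within the spread between libraries. CpG51 read 10.1%, 8.36% and 13.1%, a mean of 10.5% ± 2.39, and its highest library was below the lowest of CpG49 and CpG50. The mean over the 4 CpGs was 42.9% ± 2.51. By contrast, the 11 CpGs of the CNS2 core, numbered 52 to 62, had a mean of 1.32% ± 0.104 in the same libraries. CpG48 was the highest and CpG51 the lowest of the 4 in 23 of 23 samples, across cycles and genotypes.

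The first comparison asked how the edge of CNS2 differed between naïve cells and the WT Th2 set after 1 cycle. All 4 CpGs fell, and in this set CpG49, CpG50 and CpG51 lost most of the modification that naïve cells had, while CpG48 kept most of it. CpG48 read 63.2%, 74.3% and 74.6% in the WT Th2 libraries, and CpG49 read 5.29%, 4.53% and 10.0%. CpG50 read 10.3%, 7.21% and 13.1%, and CpG51 read 1.10%, 1.76% and 2.03%. The WT Th2 libraries all lay below the naïve libraries at 4 of 4 CpGs, as they did at 60.7% of the 56 *Il4* CpGs tested. CpG49 changed most in points, from 34.1% to 6.62% ± 2.99 (SD, n = 3), a difference of −27.5 points (95% interval −34.3 to −20.7, adjusted p = 8.10e-06). The differences were −20.7 points at CpG48 (adjusted p = 8.61e-05), −25.5 at CpG50 (adjusted p = 1.95e-05) and −8.90 at CpG51 (adjusted p = 0.000638). The test called 4 of 4 CpGs lower, beside 33 of all 56 *Il4* CpGs tested (58.9%), and the median difference was −23.1 points over the 4 and −9.00 over the 56. The mean over the 4 CpGs went from 42.9% to 22.3% ± 2.50, a difference of −20.6 ± 3.54 points. Relative to the naïve mean, WT Th2 cells retained 77.4% ± 7.09 at CpG48, 28.6% ± 8.27 at CpG50, 19.4% ± 8.78 at CpG49 and 15.5% ± 4.51 at CpG51. The range of CpG49 overlapped those of CpG50 and CpG51, and CpG48 stood above all 3. Here and below, the ± of a retained share is the SD between Th2 libraries only. It leaves out the spread of the naïve libraries, whose SD was 1.85%, 12.9%, 8.67% and 22.7% of their mean from CpG48 to CpG51.

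First-cycle levels in the WT controls of the TET line and of the TDG line differed somewhat from the WT Th2 set. TET WT cells read 76.1% and 78.0% at CpG48, 7.78% and 9.19% at CpG49, 17.2% and 15.96% at CpG50, and 3.41% and 3.63% at CpG51. The single TDG WT library read 78.3% at CpG48, 12.2% at CpG49, 20.5% at CpG50 and 5.07% at CpG51. At CpG48, CpG50 and CpG51 these 3 libraries lay above all 3 WT Th2 libraries, and at CpG49 the ranges overlapped. Over 63 *Il4* CpGs, 4.76% lay above the WT Th2 libraries in this way and 27% below them. TET WT cells retained 84.3% of the naïve mean at CpG48, 24.9% at CpG49, 46.5% at CpG50 and 33.4% at CpG51, and the TDG WT library 85.7%, 35.8%, 57.5% and 48.2% in the same order. This difference between sets was not tested. Over all 6 first-cycle WT libraries CpG48 had a mean of 74.1% ± 5.56, CpG49 of 8.17% ± 2.92, CpG50 of 14.1% ± 4.83 and CpG51 of 2.83% ± 1.47 (SD, n = 6).

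After the second cycle WT cells were lower than naïve cells at all 4 CpGs. CpG48 stood near the middle of the scale, CpG49 and CpG50 were at a few percent and CpG51 was near 1%. At CpG48 the TET WT libraries read 51.7% and 55.5% and the TDG WT libraries 55.7% and 50.1%. CpG49 read 1.93% and 2.73% in TET WT cells and 2.78% and 1.94% in TDG WT cells. CpG50 read 6.24% and 5.76%, then 6.50% and 5.15%, and CpG51 read 0.992% and 1.12%, then 1.13% and 1.05%, in the same order. The WT libraries of both lines overlapped at all 4 CpGs, and all lay below the naïve libraries at these 4, as at 76.8% of 56 CpGs. Over the 4 libraries the means were 53.2% ± 2.81 at CpG48, 2.35% ± 0.475 at CpG49, 5.91% ± 0.591 at CpG50 and 1.07% ± 0.0661 at CpG51. Against naïve cells, with the same 3 naïve libraries as above, the differences were −38.1 points at CpG48 (adjusted p = 2.18e-08), −31.8 at CpG49 (adjusted p = 1.09e-08), −29.8 at CpG50 (adjusted p = 7.47e-08) and −9.45 at CpG51 (adjusted p = 4.83e-05). These were 4 of 4 CpGs, beside 75% of the 56 tested, with a median difference of −30.8 points over the 4 and −35.3 over the 56. WT cells of the second cycle retained 58.3% ± 3.08 of the naïve level at CpG48, 16.6% ± 1.66 at CpG50, 10.2% ± 0.628 at CpG51 and 6.89% ± 1.39 at CpG49.

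Within the TET WT line, the step from the first to the second cycle was largest in points at CpG48. Its mean went from 77.0% ± 1.34 to 53.6% ± 2.69 (SD, n = 2 each), a difference of −23.4 points (95% interval −33.2 to −13.7, adjusted p = 0.000524). CpG50 fell from 16.6% ± 0.858 to 6.00% ± 0.337, a difference of −10.6 points (adjusted p = 0.00752), and CpG49 from 8.49% ± 1.00 to 2.33% ± 0.567, a difference of −6.15 points (adjusted p = 0.0225). CpG51 read 3.52% ± 0.161 and then 1.06% ± 0.0900, a difference of −2.47 points whose interval of −5.60 to 0.670 included 0 (adjusted p = 0.156). Thus 3 of 4 CpGs were called lower, beside 63.5% of 63 CpGs, and the median difference was −8.36 points over the 4 and −16.9 over the 63. With the replicate number as a block, in a fit of the compared groups alone, the quasi-binomial test called 0 (smallest adjusted p 0.110). The 2 first-cycle libraries lay above the 2 second-cycle libraries at all 4 CpGs, as at 76.2% of the 63. The call at CpG49 was lost without TET WT replicate 2 of the first cycle (adjusted p = 0.0880), replicate 1 of the second (0.0864) or replicate 2 of the second (0.0576), and limma on log odds called CpG51 as well (adjusted p = 0.00360).

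The next comparison asked whether the 4 CpGs were demethylated after deletion of the TET genes. After the first cycle, CpG49 and CpG51 in TET iTKO cells had levels inside the range of the WT naïve libraries, and both were higher than in TET WT cells. CpG49 read 35.9% and 37.8% in TET iTKO cells, and CpG51 read 10.2% and 10.7%. At CpG49 the mean was 36.8% ± 1.32 against 8.49% ± 1.00 in TET WT cells (SD, n = 2 each), a difference of 28.3 points (95% interval 20.0 to 36.6, adjusted p = 1.18e-05), which was the largest of the 4. At CpG51 the difference was 6.95 points (95% interval 1.62 to 12.3, adjusted p = 0.0232). CpG48 read 88.7% and 80.6% in TET iTKO cells, above both TET WT libraries and below all 3 naïve libraries, and the difference of 7.61 points from TET WT did not pass the threshold (95% interval −0.672 to 15.9, adjusted p = 0.0934). CpG50 read 23.8% and 28.1%, also between the TET WT and the naïve libraries, and differed from TET WT by 9.38 points (95% interval 0.814 to 17.9, adjusted p = 0.0558). All 4 CpGs read higher in both TET iTKO than in both TET WT libraries, as at 78.3% of 60 CpGs, and CpG48 and CpG50 lay below the naïve libraries, as at 27.8% of 54. The test thus called 2 of 4 CpGs higher, beside 60% of 60 CpGs, and the median difference was 8.49 points over the 4 and 12.5 over the 60. With a block for the replicate number and the compared groups alone in the fit, the quasi-binomial test called 0 (smallest adjusted p 0.0684). The mean over the 4 CpGs was 39.5% ± 0.259 in TET iTKO and 26.4% ± 0.410 in TET WT cells, a difference of 13.1 ± 0.485 points. CpG51 lost its call whichever of the 4 libraries was left out, with adjusted p of 0.0503 and 0.0567 without TET iTKO replicates 1 and 2 and 0.0834 and 0.0744 without TET WT replicates 1 and 2. The difference at CpG48 was 11.7 points and called without TET iTKO replicate 2 (adjusted p = 0.0383) but 3.53 points without replicate 1 (adjusted p = 0.551), and CpG50 was called by limma (adjusted p = 0.0463).

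After the second cycle all 4 CpGs were higher in TET iTKO than in TET WT cells, and the genotypes did not overlap at any of them, with TET iTKO above TET WT libraries at 81.7% of all 60 CpGs tested. CpG49 read 32.5% and 37.1%, CpG51 read 10.9% and 10.8%, CpG48 read 76.7% and 72.1%, and CpG50 read 21.6% and 20.2% in TET iTKO cells. CpG49 differed most, at 34.8% ± 3.21 against 2.33% ± 0.567 (SD, n = 2 each), or 32.5 points (95% interval 25.02 to 39.9, adjusted p = 4.21e-07). CpG48 was higher by 20.8 points (adjusted p = 0.000835), CpG50 by 14.9 (adjusted p = 0.000696) and CpG51 by 9.81 (adjusted p = 0.000708). These were 4 of 4 CpGs, beside 70% of 60 CpGs, with a median difference of 17.9 points over the 4 and 26.2 over the 60, and leaving out any 1 library kept the count at 4. The mean over the 4 was 35.2% ± 0.292 against 15.7% ± 0.752, a difference of 19.5 ± 0.807 points.

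Whether the TET effect grew from the first to the second cycle was tested as the difference between both effects, on log odds. It was 13.2 points at CpG48 (adjusted p = 0.461), 4.13 at CpG49 (adjusted p = 0.162), 5.52 at CpG50 (adjusted p = 0.191) and 2.86 at CpG51 (adjusted p = 0.336). The quasi-binomial test called 0 of 4, beside 0% of 60 CpGs, with 1 of the 4 at an unadjusted p under 0.05 and 0 called by limma. In points the interval at CpG48 was 0.304 to 26.1, and those of the other 3 included 0. The value at CpG49 was 1.87 points without second-cycle TET iTKO replicate 2 and 6.40 without replicate 1, and that at CpG50 was 3.36 without first-cycle TET iTKO replicate 1.

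TET iTKO cells were also compared with the WT naïve cells. The series holds no naïve library of TET iTKO or TDG iKO cells, so the level at which these cells started was not measured. Differences and retained shares of both knockouts are therefore relative to WT naïve cells. After the first cycle the differences from naïve were 2.71 points at CpG49 (95% interval −6.68 to 12.1), −0.0593 at CpG51 (−6.10 to 5.98), −6.75 at CpG48 (−13.2 to −0.268) and −9.72 at CpG50 (−18.7 to −0.770). None passed adjustment (adjusted p = 0.228 at CpG48 and CpG50), so 0 of 4 were called by the quasi-binomial test beside 9.26% of 54 CpGs, with 2 of the 4 at an unadjusted p under 0.05 and 0 called by limma. The difference at CpG48 was −2.68 points without TET iTKO replicate 2 and −10.8 without replicate 1. At CpG49 it was 1.38, 1.4996 and 5.25 points without naïve replicates 1, 2 and 3 and 1.78 without TET iTKO replicate 2, and at CpG51 it lay between −1.14 and 1.22 points with any 1 of the 5 libraries left out. After the second cycle CpG48 was lower than in naïve cells, at 74.4% ± 3.29 against 91.4% ± 1.69, with a 95% interval of the difference of −24.5 to −9.54 points (adjusted p = 0.000952). CpG50 was lower as well, at 20.9% ± 1.02 against 35.7% ± 3.09, a difference of −14.8 points (95% interval −23.4 to −6.16, adjusted p = 0.0125). CpG49 differed by 0.693 points (−8.64 to 10.0) and CpG51 by 0.338 (−5.76 to 6.44), intervals that leave room for several points either way. With 1 library left out, CpG49 ranged from −1.57 to 3.23 points and CpG51 from −0.745 to 1.62. The 2 calls stood beside 16.7% of 54 CpGs called lower, and the median difference was −7.21 points over the 4 and −1.34 over the 54. Both calls were lost in a quasi-binomial fit of the compared groups alone with a replicate block (adjusted p = 0.228 at CpG48 and 0.314 at CpG50). The call at CpG50 was lost without naïve replicate 3 (adjusted p = 0.0626), TET iTKO replicate 1 (0.0539) or TET iTKO replicate 2 (0.0898), while CpG48 was called whichever of the 5 libraries was left out. As a share of the naïve mean, second-cycle TET iTKO cells retained 103% ± 0.624 at CpG51, 102% ± 9.40 at CpG49, 81.4% ± 3.60 at CpG48 and 58.6% ± 2.86 at CpG50. The ± of these shares leaves out the spread between naïve libraries, whose SD at CpG51 was 22.7% of their mean. Both comparisons used the same 3 naïve libraries.

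Between the cycles TET iTKO cells gave differences of −10.2 points at CpG48 (95% interval −18.7 to −1.77, adjusted p = 0.128), −5.05 at CpG50 (−14.0 to 3.87), −2.02 at CpG49 (−12.1 to 8.10) and 0.397 at CpG51 (−6.12 to 6.91). The quasi-binomial test called 0 of 4, beside 11.7% of 60 CpGs called lower, with 1 of the 4 at an unadjusted p under 0.05 and 0 called by limma. CpG48 and CpG50 read lower in both second-cycle libraries than in both first-cycle libraries, as at 38.3% of the 60, CpG49 overlapped between cycles, and CpG51 read slightly higher in both second-cycle libraries, as at 10% of the 60. Single libraries moved these values, to −6.18 points at CpG48 without replicate 1 of the first cycle and −2.89 at CpG50 without replicate 2 of the first cycle. At CpG49 the difference was 0.249 points without replicate 1 of the second cycle and −4.28 without replicate 2. At CpG51 it was 0.154 and 0.641 points without replicates 1 and 2 of the first cycle.

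For TDG, the first cycle offered 1 library per genotype at these CpGs, so the values carry no replicate check. The TDG iKO library read slightly lower than the TDG WT library at all 4 CpGs, as at 73% of 63 CpGs, with a median difference of −1.97 points over the 4 and −1.09 over the 63. CpG48 read 74.3% (95% Wilson interval 72.9 to 75.6) in TDG iKO and 78.3% (77.3 to 79.2) in TDG WT cells, and CpG49 read 10.0% (9.15 to 10.9) and 12.2% (11.5 to 12.99). CpG50 read 19.7% (18.6 to 20.96) and 20.5% (19.6 to 21.5), and CpG51 read 3.32% (2.82 to 3.90) and 5.07% (4.58 to 5.61). The differences were −4.00 points at CpG48, −2.19 at CpG49, −0.772 at CpG50 and −1.75 at CpG51, and only the counting interval at CpG50 (−2.28 to 0.758) included 0. The mean over the 4 was 26.8% in TDG iKO and 29.02% in TDG WT cells. Each of these differences was smaller than the standard deviation between the 6 first-cycle WT libraries, except at CpG51, where that SD was 1.47 points. These 6 libraries pool 3 sets and include the TDG WT library itself. Between the 2 first-cycle TET WT libraries the SD was 1.34, 1.00, 0.858 and 0.161 points from CpG48 to CpG51, which the differences at CpG48, CpG49 and CpG51 exceeded.

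After the second cycle, TDG iKO cells read below the WT naïve cells at all 4 CpGs, with levels a few points from those of TDG WT cells. CpG48 read 57.3% and 57.5% in TDG iKO cells, and CpG49 read 4.35% and 3.68%, in both cases above both TDG WT libraries, as at 27% of the 63 CpGs tested. CpG50 read 7.52% and 5.50%, and CpG51 read 0.988% and 2.58%, and at both of these the genotypes overlapped. The differences from TDG WT were 4.48 points at CpG48 (95% interval −6.00 to 15.0, adjusted p = 0.871), 1.65 at CpG49 (−2.04 to 5.34, adjusted p = 0.871), 0.687 at CpG50 (−4.37 to 5.75, adjusted p = 0.940) and 0.695 at CpG51 (−1.81 to 3.20, adjusted p = 0.893). The quasi-binomial test called 0 of 4, beside 0% of 63 CpGs, with 0 of the 4 at an unadjusted p under 0.05 and 0 called by limma. With 2 libraries per genotype, an increase of up to 15.0 points at CpG48 and of up to 5.75 points at the other 3 lay within these intervals. The mean over the 4 was 17.4% ± 0.157 against 15.5% ± 1.40 (SD, n = 2 each), a difference of 1.88 ± 1.41 points. Without TDG WT replicate 1 this mean difference was 2.87 points and that at CpG48 7.31, and without TDG WT replicate 2 they were 0.885 and 1.65 points. CpG50 differed by −0.322 points without TDG iKO replicate 1, 1.70 without TDG iKO replicate 2, 1.36 without TDG WT replicate 1 and 0.0141 without TDG WT replicate 2, and CpG51 by 1.49 and −0.102 points without TDG iKO replicates 1 and 2. Weighted by reads, the mean difference was 1.24 points.

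Against naïve cells, with the same 3 naïve libraries, second-cycle TDG iKO cells were lower at 4 of 4 CpGs, beside 73.2% of 56 CpGs. CpG48 differed by −34.0 points (adjusted p = 5.03e-07), CpG49 by −30.1 (adjusted p = 5.83e-07), CpG50 by −29.2 (adjusted p = 1.51e-06) and CpG51 by −8.74 (adjusted p = 0.00130). With a replicate block and the compared groups alone, the quasi-binomial fit did not call CpG51 (adjusted p = 0.0780). The median difference was −29.6 points over the 4 and −33.7 over the 56. The share of the naïve level that TDG iKO cells retained was 62.8% ± 0.153 at CpG48, 18.3% ± 4.00 at CpG50, 16.95% ± 10.7 at CpG51 and 11.8% ± 1.37 at CpG49.

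The effect of TET loss was larger than that of TDG loss at 3 of the 4 CpGs in the second cycle, by a direct test of the difference between effects on log odds. CpG49 had the largest difference, 30.8 points (95% interval 22.5 to 39.1, adjusted p = 0.00998), followed by CpG48 with 16.3 points (1.92 to 30.7, adjusted p = 0.0354) and CpG50 with 14.2 points (5.56 to 22.9, adjusted p = 0.0426). At CpG51 the difference was 9.11 points, and although its interval in points (3.62 to 14.6) excluded 0, the test on log odds did not pass the threshold (adjusted p = 0.159). The 3 calls stood beside 63.3% of 60 CpGs, with a median difference of 15.3 points over the 4 and 24.6 over the 60. CpG49 lost its call without TDG WT replicate 1 (adjusted p = 0.0810) and with none of the other 7 libraries left out. CpG50 lost its call whichever of the 8 libraries was left out, with adjusted p from 0.0505 without TDG iKO replicate 1 to 0.148 without TDG WT replicate 1. CpG48 lost it without TDG iKO replicate 1 (0.0683), TDG iKO replicate 2 (0.0725), TDG WT replicate 1 (0.118), TET iTKO replicate 1 (0.129) or TET WT replicate 1 (0.0874), and limma gave CpG48 an adjusted p of 0.0881 and called CpG51 (adjusted p = 0.000433).

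The *Gata3* experiment asked how the locus changed in Th2 cells with sgRNAs against GATA3, again with 1 library per condition and no test. Mock-transduced cells read 74.4% at CpG48, 8.07% at CpG49, 13.3% at CpG50 and 3.41% at CpG51, all inside the range of the 6 first-cycle WT libraries. Both guide libraries read higher than mock at all 4 CpGs, as at 93.8% of 64 *Il4* CpGs, and the median difference of the 2 guides' mean from mock was 7.09 points over the 4 and 8.47 over the 64. Region means were also higher elsewhere, from 57.3% in mock to 69.4% and 70.1% in CNS1 and from 67.3% to 84.1% and 84.6% in exon 1, but stood at 96.4%, 96.1% and 96.3% in exon 3. With sgGATA3-1 the levels were 82.0% (95% Wilson interval 81.6 to 82.5) at CpG48, 21.6% (21.1 to 22.1) at CpG49, 21.1% (20.5 to 21.7) at CpG50 and 6.69% (6.31 to 7.09) at CpG51. With sgGATA3-2 they were 80.9% (80.5 to 81.4), 22.5% (22.05 to 22.9), 19.7% (19.1 to 20.3) and 5.17% (4.85 to 5.52) in the same order. CpG49 stood furthest from mock, 13.5 points higher with sgGATA3-1 and 14.4 points higher with sgGATA3-2, or 2.68 and 2.79 times the mock level. At CpG48 the guides were 7.63 and 6.56 points above mock, at CpG50 7.76 and 6.39 points, and at CpG51 3.28 and 1.76 points, in the order sgGATA3-1 and sgGATA3-2. Levels with sgGATA3-1 exceeded the range of the 6 first-cycle WT libraries at all 4 CpGs, and those with sgGATA3-2 at CpG48, CpG49 and CpG51 but not at CpG50, where the highest WT library read 20.5%. Over 63 CpGs, 42.9% exceeded that range with sgGATA3-1 and 33.3% with sgGATA3-2. Neither guide library reached the lowest naïve library at any of the 4 CpGs, as at 62.5% of 56 CpGs. Both guides were compared with the same mock library, and the spread between repeat transductions was not measured. As a share of the naïve mean, mock cells retained 23.6% at CpG49, and cells with sgGATA3-1 and sgGATA3-2 retained 63.3% and 65.9%.

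The order of CpG49 and CpG50 differed between genotypes, an observation made after the values were seen and given without a test. CpG49 read below CpG50 in 10 of 10 Th2 libraries from WT cells, by 2.69 to 9.40 points, in 3 of 3 TDG iKO libraries and in the mock library. These 10 pooled the WT Th2 set with the TET WT and TDG WT libraries of both cycles. CpG49 read above CpG50 in 4 of 4 TET iTKO libraries, by 9.64 to 16.9 points, and in 2 of 2 libraries with sgRNA against GATA3, by 0.528 points with sgGATA3-1 and 2.78 with sgGATA3-2. Naïve libraries were mixed, with CpG49 below CpG50 in 2 of 3. Relative to naïve cells the pair thus separated in both directions, since WT Th2 cells retained less of CpG49 than of CpG50 and TET iTKO cells retained more.

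In naïve and TET iTKO cells the 4 CpGs read higher than CpG52, the nearest CpG of the CNS2 core, in each library. CpG52 had levels of 0% to 4.22% over the same 23 samples, with means of 0.857% in naïve, 2.72% in first-cycle TET iTKO and 3.62% in second-cycle TET iTKO cells, and 4.22% and 2.95% with sgGATA3-1 and sgGATA3-2. CpG51 did not stand above CpG52 in every Th2 library, reading 1.10% against 1.95% in WT Th2 replicate 1 and 0.988% against 1.26% in second-cycle TDG iKO replicate 1. In the CNS2 core the test called 1 of 11 CpGs lower in WT Th2 than in naïve cells and 1 of 10 higher in second-cycle TET iTKO than in TET WT cells. The CNS2 3′ edge, CpGs 63 and 64, was also modified in naïve cells, with a mean over its CpGs with enough reads of 22.3% ± 9.31 there (SD, n = 3) and 1.72% ± 1.66 in WT Th2 cells. It read 11.7% in the 1 second-cycle TET iTKO library with enough reads and 0.232% ± 0.173 in TET WT cells (n = 2). Only 1 CpG there had enough reads in every naïve and WT Th2 library, so the naïve mean does not hold the same CpGs in each library. That CpG was called lower in WT Th2 than in naïve cells, by a difference of −29.6 points. The TET iTKO comparisons were not tested there. The exon 3 amplicon, which was highly modified in naïve cells (95.9% ± 0.348), had 0 of 5 CpGs called both for WT Th2 against naïve cells and for second-cycle TET iTKO against TET WT cells. CNS1, the enhancer at the other end of the locus, had 0 of 17 CpGs lower in second-cycle TET iTKO than in naïve cells. By the same comparison CpG48 and CpG50 were called lower, and the HSII 3′ region had 5 of 5 lower. Intron 1 and exon 2 had 2 of 9 CpGs lower, and the promoter had 3 of 4 higher. The difference between CNS1 and the CNS2 edge in that comparison was not tested.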

How the data were processed

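The authors mapped paired-end BS-seq reads to mm9 with BSMAP (-w 2 -v 5 -q 30; version not given in the sources used here) and deposited, for each cytosine, counts of reads with C and with C or T, without normalization; these counts were used as deposited. The upper limit of the counts, 65535, was not reached at the 4 CpGs but at 4 to 9 other *Il4* CpGs in each of 9 samples, which stayed in the fit, shares and medians. Amplicons were placed by matching the primer pairs to the bisulfite-converted mm9 sequence. Members and lists were chosen with earlier results of these data known, and all 4 CpGs are named in every comparison, other CpGs as groups by amplicon.

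CpGs were compared by quasi-binomial regression on C and T counts of 22 libraries in 10 groups, with Williams weights for a variance of 0.00954 between libraries, dispersion moderated by squeezeVar of limma 3.58.1 and not below 1, and two-sided F-tests. Benjamini-Hochberg adjustment ran over all *Il4* CpGs with at least 100 reads in every compared library, and CpGs were called at an adjusted p under 0.05. Samples of 1 genotype with a shared library name were treated as runs of 1 library and summed. The test was also run on simulated data, and the outcome is not given here. Region means and the mean over the 4 CpGs are unweighted, with no p-value. Intervals of differences in points come from the model, and differences between single libraries have 95% intervals from the counts. As alternatives, the minimum was 20 or 500 reads, limma tested log2((C + 1)/(T + 1)), the fit held the compared groups alone, a block stood for the replicate number, each library was left out, runs stood as separate replicates, means were weighted by reads, the 9 CpGs that reached the count limit in a compared library were left out (added later) and levels were corrected for C outside CpGs. RNA-seq and single reads were not analysed here. R 4.3.3, Python 3.11.15, numpy 2.4.6, scipy 1.17.1 and pandas 2.3.3 were used.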

Additional observations from a re-analysis of the deposited data

Results flagged for a closer look

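The effect of TET loss differed from that of TDG loss in the second cycle at CpG49 by 30.8 points, at CpG48 by 16.3 points and at CpG50 by 14.2 points. They are listed because a direct test of the difference between both effects passed the threshold of an adjusted p of 0.05. Each of these calls was lost when certain single libraries were left out, as given above.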

How the results depend on the processing

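Replicate numbers come from the labels, which do not say that they pair samples, and same-numbered libraries did not deviate together throughout (correlations of −0.271 to 0.438 over the comparisons with shared numbers). Replicate number did go with a difference in reads. In the TET groups and the second-cycle TDG groups, replicate 2 had 5 to 9 CpGs at the count limit and replicate 1 had 0. CpG48 and CpG49 had 4962 and 5126 reads in second-cycle TET iTKO replicate 1, and 2147 and 3013 in replicate 2. The part of this difference in the levels was not tested. In a fit of the compared groups alone with a replicate block, the calls went from 3 to 0 for TET WT second against first cycle (smallest adjusted p 0.110), from 2 to 0 for TET iTKO against WT in the first cycle (0.0684) and from 2 to 0 for naïve against TET iTKO in the second cycle (0.228), and CpG51 was not called for naïve against TDG iKO (0.0780). In the TET effect minus the TDG effect the block called 4, with CpG51 at 0.0486, and it changed no other call. Crossed numbers, chosen after seeing the data because TET iTKO and WT correlated at −0.263 and −0.271, gave 1 call in the first cycle and 4 in the second.

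With 1 library left out, the calls ranged from 1 to 2 for TET iTKO against WT in the first cycle, from 1 to 2 for naïve against TET iTKO in the second cycle, from 0 to 2 for the TET effect minus the TDG effect and from 2 to 3 for TET WT second against first cycle; a lone library was assumed to vary like the other groups. In the other 8 comparisons the count did not change. The mean difference was −9.14 points for second against first cycle with all WT libraries in place of −10.7, and −3.51 for TET iTKO second against first cycle when weighted by reads in place of −4.23; the cause was not tested. Of 82 counts of calls under alternatives other than leaving a library out, 78 kept within 1.5 times and the other 4 are those with a block above, and of 53 mean differences 51 moved by less than the spread between libraries. Without the 9 CpGs at the count limit no call at the 4 CpGs changed. No called difference changed sign. With 1 library left out, differences that were not called changed sign in TDG iKO against WT in the second cycle (CpG50 to −0.322 and CpG51 to −0.102 points), TET iTKO second against first cycle (CpG49 to 0.249), naïve against TET iTKO in the first cycle (CpG51 to as much as 1.22) and in the second cycle (CpG49 to as far as −1.57 and CpG51 to −0.745). CpG50 in the first-cycle TET comparison was called with 500 reads (0.0472) and with runs as separate replicates (0.0411).

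Naïve comparisons could not be fitted at 500 reads, since naïve replicate 2 had 299 to 325. TDG in the first cycle and the *Gata3* set had 1 library per group, so no paired or left-out value exists for them.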
